A study of Mus musculus with 6 samples.

Results

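The genes that write, maintain and remove DNA methylation were followed here through the histone mark H3K79me2 in N2a, an established line of mouse neuroblastoma cells. They were chosen by name and number 8 of the 55450 genes annotated in GENCODE release M21: the maintenance genes Dnmt1 and Uhrf1, the de novo genes Dnmt3a, Dnmt3b and Dnmt3l, and the erasers Tet1, Tet2 and Tet3. H3K79me2 was mapped by chromatin immunoprecipitation and sequencing (ChIP-seq), and each gene was read over its body and the 3 kb upstream of its 5′ end on GRCm38. Control cells (CTR) were transfected with a pLKO.1 plasmid carrying a short hairpin RNA with no target, and knockdown cells (NPM1 KD) with the same plasmid carrying a hairpin against Npm1. Puromycin was used to select transfected cells, all cells were kept for 3 days in vitro, and each group had 2 libraries, which the methods of the study describe as separate passages of the line transfected in separate batches. A single hairpin sequence was used against Npm1. The pooled inputs, 1 per group, were not analysed here.

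DNA methylation in mammals sits mostly on the cytosine of CpG dinucleotides. DNMT3A and DNMT3B place it on unmethylated DNA, with DNMT3L as a partner that has no catalytic activity of its own, and DNMT1 copies it to the new strand after replication, guided by UHRF1, which binds hemimethylated CpG. The TET enzymes oxidise 5-methylcytosine, which leads to its loss by dilution or by base excision. H3K79me2 is placed by DOT1L and lies on transcribed genes, where it begins just after the transcription start and fades along the gene body. A peak of this mark is therefore often read as a sign of transcription, but RNA was not measured in these libraries.

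A broad peak is a stretch of enriched signal called with gaps allowed, and the share of a gene's window that such peaks cover is called its covered percent below. A narrow peak is a shorter stretch with a summit. Its fold is the pileup of fragments at the summit over the background of the same library, with 1 added to each. The background pileup, which follows depth, came to 11.9 (CTR 1), 7.65 (CTR 2), 8.99 (NPM1 KD 1) and 11.8 (NPM1 KD 2). Of 10 marker genes of neuroblastoma, 7 had a broad peak in all 4 libraries and 3 had none in any. Of 12 markers of blood, liver, muscle, epithelium, astrocytes and endothelium, 11 had none, and Pecam1 was covered to at most 0.247%. H3K79me2 over Npm1 does not measure its RNA, so the knockdown could not be checked in these lists; its covered percent averaged 88.7 ± 0.488 for CTR and 88.8 ± 0.325 for NPM1 KD (SD, n = 2).

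The 8 genes fell into 3 kinds in CTR and NPM1 KD alike. Dnmt1, Uhrf1, Dnmt3a, Tet2 and Tet3 carried long domains that covered between 46.2% and 91.0% of their windows. Dnmt3b carried a short patch at its 5′ end, Tet1 carried only weak islands deep inside the gene, and Dnmt3l carried no peak of either kind in any library. In CTR the covered percent of Tet3 was higher than in 93.3% of the 21951 protein-coding genes, that of Uhrf1 higher than in 89.9%, that of Dnmt3a in 88.1%, that of Tet2 in 83.8% and that of Dnmt1 in 75.2%. Of the protein-coding genes, 46.0% had no broad peak in any library, Dnmt3l among them.

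**Figure D1:**
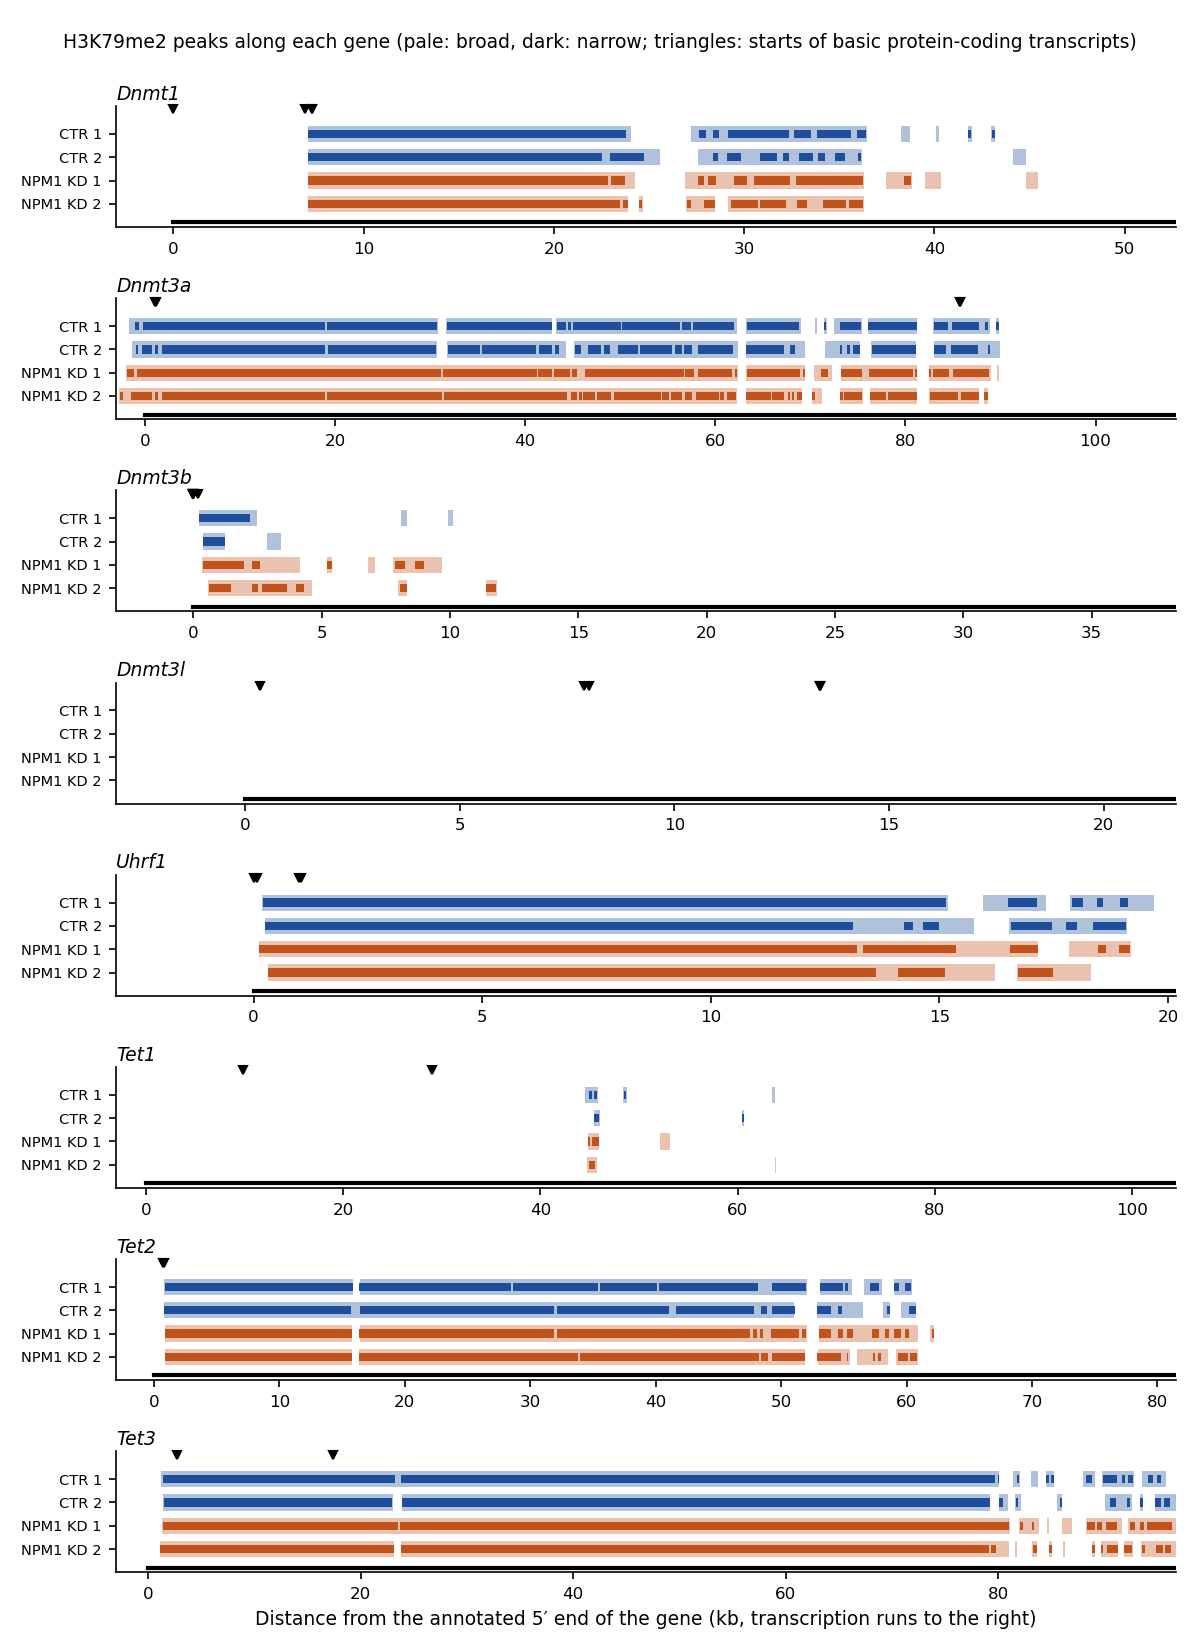
Peaks of the 4 libraries along each gene, by distance in kb from the annotated 5′ end, with transcription running to the right. Pale bars are broad peaks and dark bars narrow peaks, blue for CTR and orange for NPM1 KD, and triangles mark the starts of protein-coding transcripts of the GENCODE basic set. The domain of Dnmt1 begins at its inner starts near 7 kb, Tet1 has no peak at its starts, and Dnmt3l is empty.

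The promoters of the starts that separate these 3 kinds are shown first. RefSeq (GRCm38.p6) gives 15 promoters for the 8 genes, each of 300 bases from 250 before the start to 50 after it. Of these, 7 follow, 5′ to 3′ on the strand of the gene, with CpG dinucleotides in capitals. The first 2 are an outer and an inner start of Dnmt1, at chr9:20959839-20960138 and chr9:20952574-20952873 on the minus strand, of which only the inner one had a peak after it.
Dnmt1 outer start: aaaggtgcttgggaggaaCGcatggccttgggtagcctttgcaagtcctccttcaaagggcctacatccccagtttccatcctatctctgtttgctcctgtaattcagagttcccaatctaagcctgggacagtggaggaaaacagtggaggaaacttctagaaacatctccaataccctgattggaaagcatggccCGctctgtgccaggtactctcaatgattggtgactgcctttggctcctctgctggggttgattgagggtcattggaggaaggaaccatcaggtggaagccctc
Dnmt1 inner start: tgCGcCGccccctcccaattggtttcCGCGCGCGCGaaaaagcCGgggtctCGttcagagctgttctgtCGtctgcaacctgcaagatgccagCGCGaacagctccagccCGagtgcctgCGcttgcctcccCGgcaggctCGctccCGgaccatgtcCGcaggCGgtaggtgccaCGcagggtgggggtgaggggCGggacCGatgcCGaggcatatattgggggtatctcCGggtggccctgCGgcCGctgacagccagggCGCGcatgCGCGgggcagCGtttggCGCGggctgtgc
The next is the inner start of Uhrf1, at chr17:56304063-56304362 on the plus strand, beside the summit of its domain.
Uhrf1 inner start: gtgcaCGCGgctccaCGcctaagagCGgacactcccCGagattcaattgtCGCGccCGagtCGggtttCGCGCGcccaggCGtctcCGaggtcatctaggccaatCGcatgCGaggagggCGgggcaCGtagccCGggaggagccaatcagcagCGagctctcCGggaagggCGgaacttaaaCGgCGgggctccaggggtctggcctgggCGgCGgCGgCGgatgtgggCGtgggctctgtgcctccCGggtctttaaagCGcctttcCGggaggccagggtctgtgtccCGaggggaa
The starts of Dnmt3b, at chr2:153649199-153649498 on the plus strand, and of Tet2, at chr3:133544341-133544640 on the minus strand, are both CpG-rich and lie before a short and a long domain.
Dnmt3b: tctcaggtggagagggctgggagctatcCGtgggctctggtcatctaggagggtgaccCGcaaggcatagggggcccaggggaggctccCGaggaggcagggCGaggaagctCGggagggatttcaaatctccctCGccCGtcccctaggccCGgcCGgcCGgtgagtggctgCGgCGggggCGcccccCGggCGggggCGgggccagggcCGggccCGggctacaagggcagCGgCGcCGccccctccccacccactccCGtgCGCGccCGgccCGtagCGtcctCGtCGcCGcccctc
Tet2: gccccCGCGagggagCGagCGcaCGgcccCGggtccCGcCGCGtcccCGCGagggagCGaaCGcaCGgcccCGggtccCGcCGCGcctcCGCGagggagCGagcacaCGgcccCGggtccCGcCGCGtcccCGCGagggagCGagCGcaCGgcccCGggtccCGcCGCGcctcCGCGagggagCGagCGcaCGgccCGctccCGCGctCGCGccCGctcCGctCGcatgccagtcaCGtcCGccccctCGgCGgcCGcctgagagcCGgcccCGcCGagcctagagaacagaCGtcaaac
The last are the only RefSeq promoter of Tet1, at chr10:62887275-62887574 on the minus strand, and the outermost of Dnmt3l, at chr10:78042037-78042336 on the plus strand, neither of which had a peak after it.
Tet1: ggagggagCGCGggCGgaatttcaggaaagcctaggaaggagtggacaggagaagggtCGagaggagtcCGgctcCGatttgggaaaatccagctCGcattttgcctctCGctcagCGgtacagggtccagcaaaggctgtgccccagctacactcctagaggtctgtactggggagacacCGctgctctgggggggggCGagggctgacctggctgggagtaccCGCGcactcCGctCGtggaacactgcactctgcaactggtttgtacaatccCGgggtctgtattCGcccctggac
Dnmt3l: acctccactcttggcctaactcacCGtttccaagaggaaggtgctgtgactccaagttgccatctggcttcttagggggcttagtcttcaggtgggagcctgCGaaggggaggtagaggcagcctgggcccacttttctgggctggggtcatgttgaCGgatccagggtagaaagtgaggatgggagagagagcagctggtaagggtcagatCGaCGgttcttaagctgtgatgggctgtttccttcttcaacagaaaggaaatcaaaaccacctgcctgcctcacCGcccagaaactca

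The Tet2 promoter held 57 CpG, a number reached by 0.152% of the 32851 RefSeq mouse promoters, whose median was 7. The inner promoters of Dnmt1 and Uhrf1 held 33 each, reached by 8.56% of promoters, and that of Dnmt3b held 30. The outer Dnmt1 promoter held 2, the Dnmt3l promoters between 3 and 6, and the Tet1 promoter 17. All 6 member promoters with at least 30 CpG had broad peaks in the following 2 kb in all 4 libraries. Among the 9 with fewer, 4 had them in all 4 libraries and 5 in none, and the Tet1 promoter, with 17, was bare where the outer promoter of Uhrf1 and the Dnmt1 promoter at 6.91 kb, with 12 each, were covered. Promoters of 1 gene share its domain, so these are 15 promoters of 8 genes and are described without a test.

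Of the letter patterns searched on both strands, GGGCGG, the core of the GC box, was found in 12 of the 15 promoters and in at least 1 promoter of all 8 genes, against 35.7% of all RefSeq promoters. CCAAT was found in 5 of 15 (all promoters: 37.4%) and TATAAA in 0 of 15 (13.6%). TTTCGCGC, which has the letters of the E2F consensus, was found in 2 of 15, the inner promoters of Dnmt1 and Uhrf1, and in 0.323% of all promoters. TTTGGCGC was found in the inner Dnmt1 promoter alone (all promoters: 0.514%), TTTCCCGC in none (1.07%), and CACGTG in 2 of 15, the promoter of Dnmt3a at its internal start and 1 of Dnmt3l (7.15%). A match is a description of letters, not of binding, and GGGCGG itself holds a CpG and so follows CpG content.

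**Figure D2:**
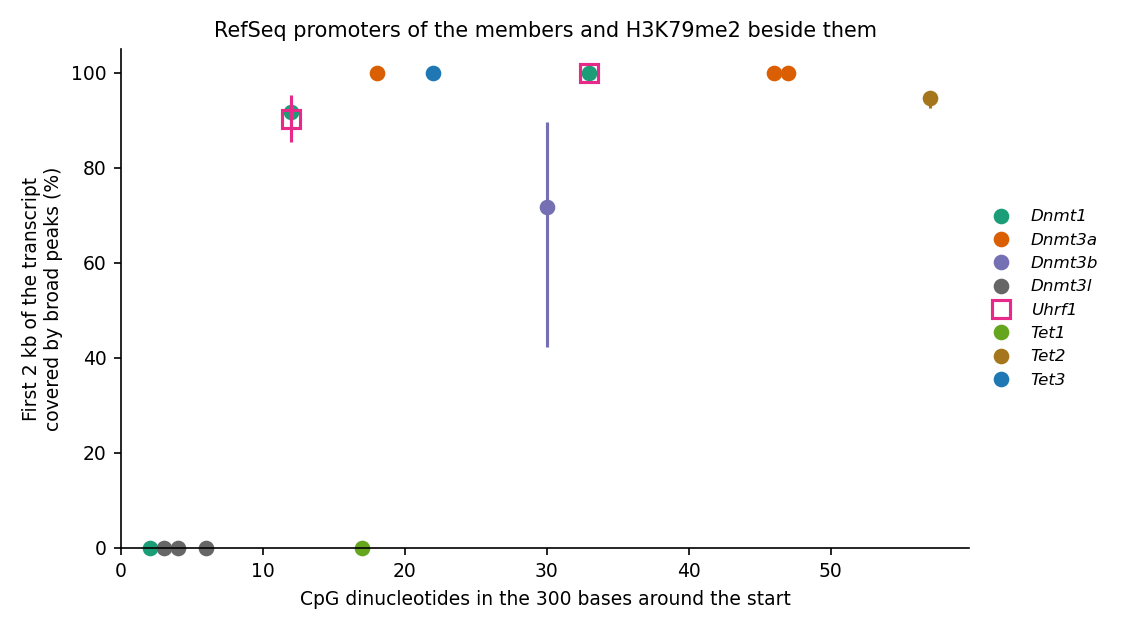
CpG dinucleotides in each of the 15 RefSeq promoters (x axis, number per 300 bases) against the percent of the following 2 kb covered by broad peaks (y axis); points are means of the 4 libraries and lines run from the lowest to the highest library. All promoters with at least 30 CpG are covered, 5 with between 2 and 17 are bare, and the patch after Dnmt3b varies most between libraries.

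Dnmt1, the maintenance methyltransferase, lies at chr9:20907209-20959888 on the minus strand. Broad peaks covered 48.9% and 49.8% of its window for CTR 1 and 2, and 52.7% and 46.2% for NPM1 KD 1 and 2. The highest and the lowest value were both NPM1 KD libraries, so the groups overlapped. The gene has an outer start at its annotated 5′ end (transcript Dnmt1-202) and a cluster of inner ones (Dnmt1-201 at 6.91 kb, Dnmt1-203 at 7.26 kb and Dnmt1-207 at 7.28 kb). Dnmt1 is known to be read from an oocyte-specific and from a somatic first exon, which the annotation used here does not label. The 2 kb after the outer start were covered to 0% in every library and those after Dnmt1-203 to 100% in every library. The domain began at 7.05 to 7.09 kb, a spread of 34 bp over the 4 libraries, and ran to between 24.1 and 25.6 kb, which is intron 8 or 9 of the 39 exons of Dnmt1-201.

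Behind a bare stretch, a weaker Dnmt1 domain lay between about 27 and 36 kb. In CTR 1 its broad peak had a mean fold of 2.42, against 12.1 for the first domain of the same library. The 3′-most 25% of the gene body was covered to 3.90% (CTR 1), 5.00% (CTR 2), 10.9% (NPM1 KD 1) and 0% (NPM1 KD 2). The mark thinned toward the 3′ end in each library, and the highest and the lowest value were again NPM1 KD libraries. The 3 kb upstream of the annotated 5′ end, where the neighbouring gene S1pr2 lies, held no broad peak.

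Uhrf1, the partner that brings DNMT1 to replicated DNA, lies at chr17:56303321-56323486 on the plus strand. The covered percent of Uhrf1 came to 78.7 and 78.1 for CTR 1 and 2, and to 79.5 and 75.6 for NPM1 KD 1 and 2. As for Dnmt1, both extremes were NPM1 KD libraries. The domain began 0.109 to 0.307 kb inside the gene and ended at 18.3 to 19.7 kb, in intron 15 or exon 17, the last exon of Uhrf1-201. In the whole broad lists Uhrf1 was thus marked along nearly its whole length. In narrow lists the domain ended at 13.1 to 15.4 kb, and in broad peaks whose −log10 q reached 5 at 15.2 to 17.2 kb. The strongest summit lay at 1.18 to 1.64 kb, just after the inner starts at 0.992 and 1.03 kb.

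Dnmt3a, a de novo methyltransferase, lies at chr12:3806007-3914443 on the plus strand. The 2 CTR libraries covered 74.7% and 74.7% of its window, NPM1 KD 1 covered 78.4% and NPM1 KD 2 76.4%, so both NPM1 KD values exceeded both CTR values. It was the only one of the 8 genes with broad peaks in the 3 kb upstream, of which 56.2% and 45.5% were covered in CTR and 67.7% and 92.2% in NPM1 KD. Broad peaks followed each other to about 90 kb, and no library had one after that point. The internal starts of Dnmt3a-205 and Dnmt3a-203 at 85.7 kb, at which shorter transcripts begin, lay inside the marked part, and the 2 kb after them were covered to 100% in all 4 libraries. That stretch was weak: the broad peak over it had a mean fold of 2.79 in CTR 1, against 9.45 for the peak at the 5′ end.

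In CTR the first broad peak of Dnmt3a ended at 30.8 and 30.7 kb, and in NPM1 KD it ran on to 62.3 kb in both libraries. With peaks up to 1 kb apart joined, the 5′ domain ended at 62.3 kb (CTR 1), 30.7 kb (CTR 2), 81.2 kb (NPM1 KD 1) and 71.3 kb (NPM1 KD 2), a difference of 29.8 kb between the means. The difference was 45.6 kb without CTR 1 and 14.0 kb without CTR 2, 19.5 kb in narrow lists and 22.8 kb in broad peaks whose −log10 q reached 5. With peaks up to 3 kb apart joined it was -0.603 kb.

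Dnmt3b, the other de novo methyltransferase, lies at chr2:153649450-153687730 on the plus strand. Only a small part of its window was covered, 6.47% (CTR 1), 3.36% (CTR 2), 14.9% (NPM1 KD 1) and 11.7% (NPM1 KD 2). Both NPM1 KD values exceeded both CTR values, with 2.71 times as many covered bases on average. The patch lay in exon 1 and intron 1 and ended at 2.47 and 1.23 kb in CTR and at 4.14 and 4.62 kb in NPM1 KD. It spanned 2.27 and 0.845 kb in CTR and 3.79 and 4.07 kb in NPM1 KD. The bases covered in the whole window were 2669 and 1386 in CTR and 6136 and 4849 in NPM1 KD. Part of them therefore lay in separate peaks outside the patch. The strongest summit of the patch stayed at 0.718 to 0.920 kb in all 4 libraries. The highest fold of Dnmt3b, at this summit, was 4.04 and 4.39 in CTR and 4.51 and 3.36 in NPM1 KD, which overlapped. Narrow peaks of NPM1 KD with a summit past 2.47 kb, where the longer CTR patch ended, had folds from 2.10 to 2.74. With broad peaks whose −log10 q reached 5 only, NPM1 KD 2 had no peak left in Dnmt3b and the groups overlapped. The antisense gene Dnmt3bos overlaps this start, and ChIP-seq peaks carry no strand, so the 2 genes cannot be told apart there.

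Dnmt3l, the catalytically inactive partner of the de novo enzymes, lies at chr10:78041947-78063622 on the plus strand. No broad and no narrow peak of any of the 4 libraries touched its body or the 3 kb upstream. The files list only peaks past a threshold, so signal below it cannot be seen.

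Tet1 lies at chr10:62804570-62908996 on the minus strand. The covered percent of Tet1 came to 1.81 and 0.777 for CTR 1 and 2, and to 2.02 and 1.03 for NPM1 KD 1 and 2, and the groups overlapped. None of the starts of its protein-coding transcripts had a broad peak in the 2 kb after it. A single island was shared by all 4 libraries, in intron 3 of Tet1-206, between 44.6 and 46.0 kb. Its summit rested on few fragments: the highest pileup in Tet1 was 25 and 19 fragments for CTR 1 and 2 and 24 and 28 for NPM1 KD 1 and 2, for a fold of 2.02, 2.31, 2.50 and 2.27. The exact Poisson interval (95%, counting error only) of the fold in CTR 2 was 1.44 to 3.55 and held the values of the other 3 libraries. In CTR the highest fold of Tet1 was at or above that of 0.237% of the 11394 protein-coding genes with a narrow peak in both CTR libraries.

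Tet2 lies at chr3:133463679-133545139 on the minus strand. For CTR 1 and 2 the covered percent of Tet2 was 66.4 and 65.8, and for NPM1 KD 1 and 2 it was 69.6 and 67.7, so both NPM1 KD values exceeded both CTR values. The domain began at 0.829 to 0.895 kb, a spread of 66 bp. It ended at 52.0 and 51.0 kb in CTR, in intron 2 of Tet2-201, and at 62.2 and 60.9 kb in NPM1 KD, in introns 4 and 3. The stretch past 52 kb was weak in each group, with a mean fold of 2.15 for the first broad peak beyond it in CTR 1 and 2.09 in NPM1 KD 1. CTR libraries had peaks there too, up to 60.5 and 60.7 kb, and with peaks up to 3 kb apart joined the ends differed by 0.971 kb in place of 10.0 kb. Narrow lists gave a difference of 4.07 kb and broad peaks whose −log10 q reached 5 a difference of 0.486 kb.

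A 527 bp stretch of Tet2, between 15.8 and 16.4 kb, had no narrow peak in any library although the domain continued on both sides. In the reference genome 100% of its bases are soft-masked as repeats. Shorter stretches of Tet2 that start at 48.3 and 48.9 kb had no narrow peak either, and 81.25% and 83.2% of their bases are soft-masked. A 184 bp stretch of Tet3 between 23.5 and 23.7 kb was also without a narrow peak in all 4 libraries, and 0% of its bases are soft-masked. Uhrf1 had such stretches of 1148, 298 and 179 bp, of whose bases 48.4%, 93.0% and 27.4% are soft-masked. Of the part of the Tet2 domain shared by all libraries 92.4% lay in a narrow peak of every library. Of that of Tet3 it was 97.6%, and of that of Uhrf1 76.3%.

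Tet3 lies at chr6:83362373-83459084 on the minus strand and was the most covered of the 8 genes. The 4 libraries covered 87.6% (CTR 1), 83.9% (CTR 2), 91.0% (NPM1 KD 1) and 86.8% (NPM1 KD 2) of its window, and the groups overlapped. The domain began at 1.09 to 1.41 kb, before the start of Tet3-203 at 2.69 kb, ran through the start of Tet3-202 at 17.4 kb and ended at 80.1 to 84.8 kb. In CTR 2 and NPM1 KD 2, in which the broad domain was split near 23 kb, the part behind the gap still had a mean fold of 6.92 and 6.78. In these libraries the mark of Tet3 thus stayed high past the inner start. The broad peak over the internal starts of Dnmt3a was weak in CTR 1, but those starts lie at 85.7 kb, so the genes are not compared at like distances.

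**Figure D3:**
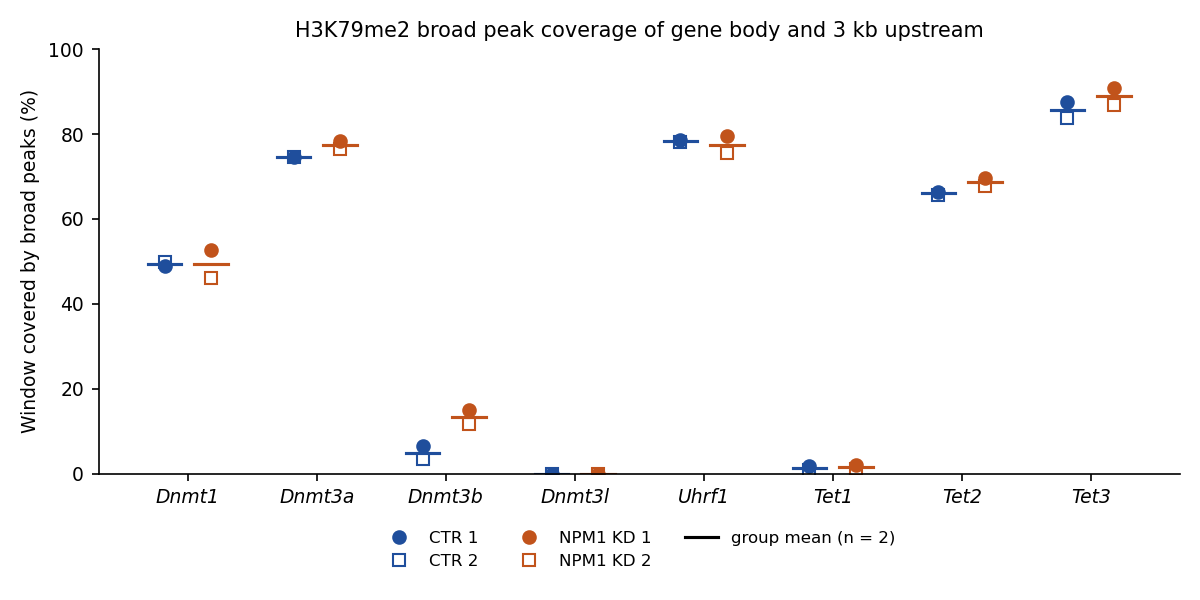
Percent of the window (gene body and 3 kb upstream) covered by broad peaks in each library, circles for replicate 1 and squares for replicate 2, with bars at the mean of each group (n = 2). NPM1 KD lies above CTR without overlap in Dnmt3a, Dnmt3b and Tet2, and NPM1 KD 1 is the highest library in the 7 genes with peaks.

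The comparison of NPM1 KD with CTR asks whether the extent or the height of the mark on these genes changed when Npm1 was depleted. Folds are relative to the background of the same library and no spike-in is described. A rise or fall shared by the whole genome may therefore not show, and setting library medians equal removes a shift common to all genes. The paper reports a rise of H3K79me2 by immunoblot in the replicates used for ChIP-seq. Its own test of these libraries, based on reads, found more regions lower than higher in NPM1 KD, with changes it calls subtle. Whether the members are among those regions is not reported here. In the tests on peak lists used here, no member passed in either measure. Both NPM1 KD libraries were above both CTR libraries in covered length in 3 of the 7 members with a peak (Dnmt3a, Dnmt3b and Tet2), and below in 0 of 7. Of the 18781 genes tested, 38.7% were above without overlap and 3.14% below, so the share among the members was near that of all genes. NPM1 KD 1 was the highest of the 4 libraries in 7 of 7 members and in 49.3% of all genes tested. Without NPM1 KD 2 the count of members above without overlap was 7 (all genes: 62.8%), without CTR 1 it was 5 (61.1%), without CTR 2 it was 3 (43.5%) and without NPM1 KD 1 it was 3 (44.8%). In the last case 2 members (Dnmt1 and Uhrf1) were below (all genes: 14.4%), and 0 were below without CTR 1 (5.76%), CTR 2 (14.2%) or NPM1 KD 2 (6.22%).

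The genes that made up the count depended on the list. In the narrow lists they were Dnmt3b and Tet3 (all genes: 35.9%), in broad peaks whose −log10 q reached 5 they were Dnmt3a, Uhrf1 and Tet3 (30.2%), and in broad lists cut to the same number of peaks they were Dnmt3a, Dnmt3b and Tet1 (37.6%). Narrow and broad lists may also differ in which reads were kept before calling, as their peak names differ on this point. With the whole broad lists counted in, Dnmt3a was above in 3 of these 4 lists, and so was Dnmt3b. With 2 libraries against 2, an exact permutation test of a single value cannot give a p below 0.33 (two-sided), so the test across all genes was used.

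Covered length was tested with limma on log2(covered bp + 1000) across all genes with a broad peak in at least 1 library, with Benjamini-Hochberg adjustment. The fit called 5 genes, or 0.0266% of those tested, all higher in NPM1 KD. The largest difference among the members was that of Dnmt3b, at 1.13 ± 0.31 (log2, SE) with an adjusted p of 0.372 and an unadjusted p of 0.0470, the only member with an unadjusted p under 0.05. Among all 18781 genes tested, 2352 were higher and 124 lower in NPM1 KD at an unadjusted p under 0.05 (limma). For Dnmt3a the difference was 0.051 ± 0.017 (limma adjusted p = 0.425) and for Tet2 0.054 ± 0.019 (limma adjusted p = 0.441). Tet3 differed by 0.051 ± 0.041 and Tet1 by 0.15 ± 0.40, Dnmt1 by 0.00025 ± 0.083 and Uhrf1 by -0.016 ± 0.031, with adjusted p from 0.687 to 1. The median over the 7 members was 0.051 and over all genes tested 0.065, so the members that differed by about 0.05 stood where the typical gene stood. With the replicate number as a block the fit called 0 genes, and the smallest adjusted p of a member was 0.284 (Dnmt3b).

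**Figure D4:**
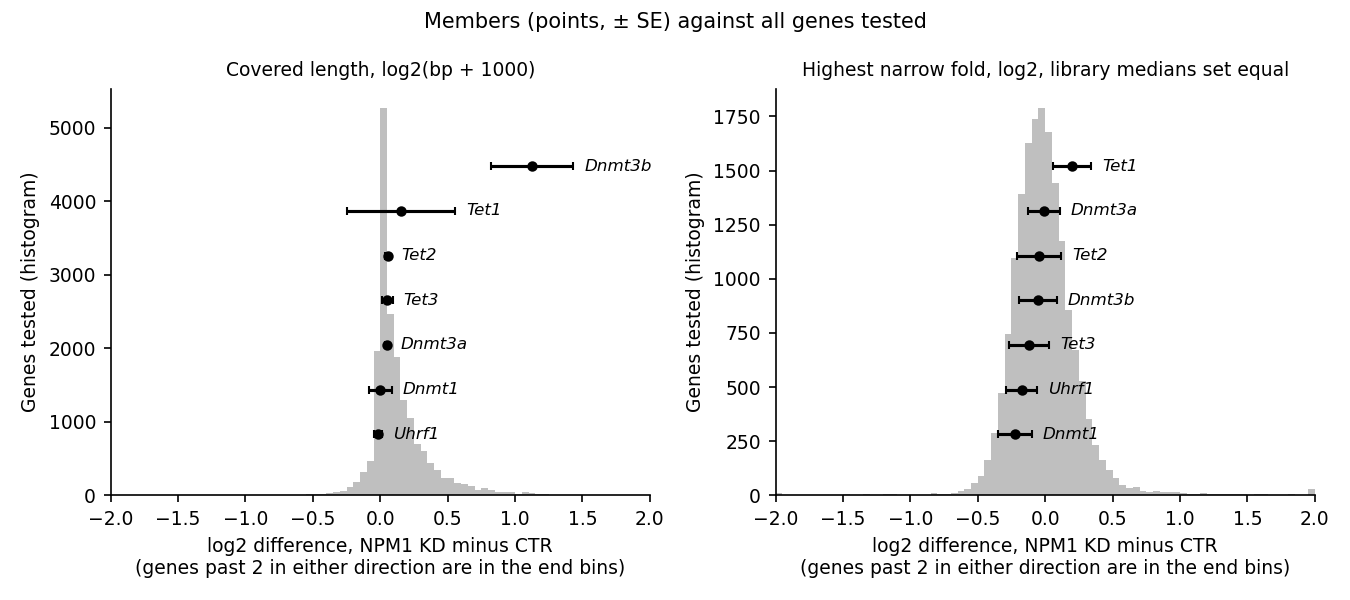
Differences between NPM1 KD and CTR (log2) for the 7 members with peaks, as points with their standard errors at arbitrary heights, over the histogram of all genes tested, for covered length (left) and for the highest narrow fold (right). Dnmt3b lies apart from the bulk of genes on the left with a wide error, and the other members lie within it on both sides.

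In the height of the mark, the fold of the strongest narrow peak was below CTR without overlap in 2 of the 7 members with a peak, Dnmt1 and Uhrf1, and above in 0, against 28.9% and 10% of the 17231 genes with a narrow peak in all 4 libraries, so the share among the members was near that of all genes. For Dnmt1 the highest fold was 25.9 and 27.4 for CTR 1 and 2, and 22.8 and 20.97 for NPM1 KD 1 and 2. The groups did not overlap, and the mean was 0.821 times that of CTR. The summit pileups behind these folds were 333, 236, 227 and 267 fragments in the same order, and the exact Poisson intervals of the folds (95%, counting error only) were 23.2 to 28.8 and 24.0 to 31.1 for CTR 1 and 2, and 19.97 to 26.0 and 18.5 to 23.6 for NPM1 KD 1 and 2. That of NPM1 KD 1 overlapped both CTR intervals, and that of NPM1 KD 2 overlapped that of CTR 1 but not that of CTR 2.

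For Uhrf1 it was 23.2 and 22.8 for CTR 1 and 2, and 20.8 and 18.4 for NPM1 KD 1 and 2, again without overlap, and the mean was 0.853 times that of CTR. Among the 10757 genes with a mean fold of at least 10, a background chosen after the data were seen, 38.3% were below, against 2 of the 5 members of that height, and the median ratio was 0.910. With the library medians set equal 24.8% were below without overlap, Dnmt1 and Uhrf1 still among them, and 17.5% were above, with Tet1 the 1 member there (centred log2 fold -2.67 ± 0.19 for CTR and -2.47 ± 0.049 for NPM1 KD, SD, n = 2).

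The other members overlapped between groups in their highest narrow fold as deposited. In Dnmt3a it was 20.2 and 18.0 in CTR and 20.03 and 16.6 in NPM1 KD, and in Tet3 22.2 and 17.3 in CTR and 19.7 and 15.3 in NPM1 KD. For both genes the replicates of 1 group differed by more than the group means did. In Tet2 it was 14.4 and 15.6 in CTR and 13.3 and 14.7 in NPM1 KD. Read within replicate numbers, 5 of the 7 members (Dnmt1, Uhrf1, Dnmt3a, Tet2 and Tet3) were lower in both pairs, against 44.1% of all genes, and with library medians set equal 3 of 7 (Dnmt1, Uhrf1 and Tet3), against 37.2%.

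The fold of broad peaks, which is a mean over the length of a peak, gave other values for Dnmt3a. The highest broad fold of Dnmt3a was 9.45 and 9.06 for CTR 1 and 2 and 6.34 and 5.67 for NPM1 KD 1 and 2, without overlap. After centring, it differed by -0.58 ± 0.071 (log2, SE), with an unadjusted p of 0.00051 and an adjusted p of 0.0745 (limma), the lowest adjusted p of a member under any setting and not past the threshold. The first broad peak of Dnmt3a was also the longer one in NPM1 KD, and the part of this length in its mean fold was not tested. In highest broad fold 4 of the 7 members were below without overlap (Dnmt1, Uhrf1, Dnmt3a and Tet3) and 0 above, against 38.8% and 10.1% of the 17091 genes with a broad peak in all 4 libraries.

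With library medians set equal, limma called 39 of 17231 genes in highest fold (0.226%), 27 higher and 12 lower in NPM1 KD, and none of the members, with 0 of 7 at an unadjusted p under 0.05, which does not show that they did not differ. Among all genes tested, 691 were higher and 630 lower in NPM1 KD at such an unadjusted p. Dnmt1 differed by -0.23 ± 0.13 (log2, SE; limma adjusted p = 0.636) and Uhrf1 by -0.17 ± 0.12 (limma adjusted p = 0.666). Tet1 differed by 0.20 ± 0.14, Tet3 by -0.12 ± 0.15, Dnmt3b by -0.054 ± 0.14, Tet2 by -0.042 ± 0.16 and Dnmt3a by -0.0073 ± 0.12, with adjusted p from 0.671 to 0.990. Ranked within its own list, the strongest peak of Dnmt1 stood at the percentile 97.9 ± 0.134 for CTR and 97.6 ± 0.258 for NPM1 KD (SD, n = 2), and the groups overlapped, as they did for Uhrf1 at 97.0 ± 0.238 and 96.9 ± 0.0448. Tet1 alone of the members did not overlap in percentile. Its strongest peak stood at 13.9 and 15.0 for CTR 1 and 2 and at 35.5 and 35.4 for NPM1 KD 1 and 2, a difference of 20.997 ± 0.592 percentage points (SE; limma, unadjusted p = 6.58e-05, adjusted p = 0.189). Of all genes 34.1% were above without overlap in percentile and 5.83% below, and these Tet1 peaks are the summits of 19 to 28 fragments given above.

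**Figure D5:**
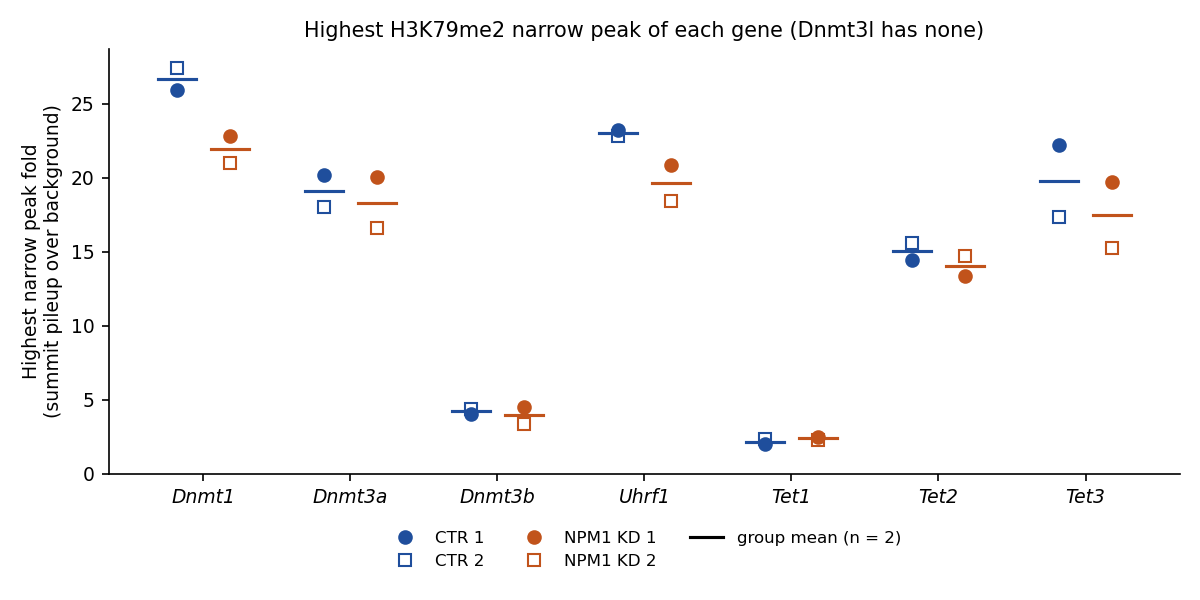
Fold of the strongest narrow peak of each gene in each library, circles for replicate 1 and squares for replicate 2, with bars at the mean of each group (n = 2). Dnmt1 and Uhrf1 are lower in both NPM1 KD libraries than in both CTR libraries, and the other genes overlap.

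The other genes of the pathway were read the same way from a list of 41, of which 40 had a broad peak in all 4 libraries and Dppa3, which acts in oocytes and early embryos, had none. None passed the test in covered length or highest fold (limma), with 4 of 40 and 2 of 40 at an unadjusted p under 0.05. Over all genes, 2352 higher and 124 lower of 18781 were under that p in covered length (limma). In highest fold 691 higher and 630 lower of 17231 were. In covered length 14 of the listed genes were above in NPM1 KD without overlap and 3 below, and in highest fold 17 were below and 1 above. These shares of the 40 stand beside 38.7% above and 3.14% below in covered length over all genes, and 28.9% below and 10% above in highest fold, which are also the background of the counts by group that follow. The median difference in covered length was 0.031 (log2), against 0.065 over all genes.

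All 9 readers of CpG methylation state had a broad peak in all 4 libraries, with a median covered percent of 54.6, from 30.2 in Mbd1 to 90.9 in Uhrf2, the relative of Uhrf1. In covered length 4 of the 9 were above without overlap and 2 below. Of the 7 partners of maintenance, 6 had a peak throughout, and Pcna, the sliding clamp of replication, was covered to 100%. Hells, a chromatin remodeller needed for methylation, was the one partner above without overlap, at 71.1 ± 2.14 for CTR and 79.9 ± 7.85 for NPM1 KD (SD, n = 2). In highest fold 4 of the 6 were below without overlap.

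The 9 genes of base excision repair ran from Neil1 (10.0%) to Apex1 (100%). Of these, 6 were above in covered length without overlap, among them Tdg, the glycosylase that removes oxidised 5-methylcytosine, at 72.6 ± 0.528 for CTR and 74.1 ± 0.442 for NPM1 KD, and Neil1 at 6.05 ± 0.690 and 14.0 ± 1.74 (SD, n = 2). The adjusted p of Neil1 was 0.250 (limma). Lig3 was the one below. Of the 8 genes that supply the methyl donor or 2-oxoglutarate, the cofactor of the TET enzymes, Mat2a was the most covered (99.96%) and D2hgdh the least (3.72%).

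The 8 regulators of TET and of de novo methylation ran from Zfp57 (21.2%) to Gadd45a (100%). Of them, 2 were above in covered length without overlap, Ogt, which binds TET enzymes, and Trim28, the partner of Zfp57, and 5 were below in highest fold. Dot1l, which writes the mark, was covered to 94.5 ± 4.23% for CTR and 95.3 ± 0.732% for NPM1 KD (SD, n = 2). Its highest fold was 53.9 and 43.8 in CTR against 38.8 and 31.7 in NPM1 KD, without overlap. It did not pass the test on peak lists used here (limma adjusted p = 0.622). In the paper's supplement, the read-based comparison of these libraries lists a negative log2 change for Dot1l and for Npm1, at an FDR under 0.05. The paper's text, however, counts both among genes that gained the mark.

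Genes of like length whose covered percent was closest to that of a member over the 4 libraries were found for each member with a peak, by Euclidean distance among protein-coding genes with a window within 20% of its length. They were Map3k14 and Zc3h7b for Dnmt1, Gm28038 and Sdc1 for Uhrf1, Agpat4 and Lamc1 for Dnmt3a, Rgs10 and Castor2 for Dnmt3b, Gramd1c and Slco1a6 for Tet1, Pkn2 and Actn4 for Tet2, and Sppl3 and Atp2b1 for Tet3. The closest was Gramd1c, at 0.406 percentage points, and the farthest Zc3h7b, at 3.55. Rgs10, the closest to Dnmt3b, was covered to 5.74% and 4.17% in CTR and to 13.1% and 11.5% in NPM1 KD.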

How the data were processed

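H3K79me2 ChIP-seq reads of 4 libraries (CTR 1 and 2, NPM1 KD 1 and 2) were processed by the authors, whose notes name Bowtie2 2.3.4.1, MACS2 2.2.6 and the build mm10; the version of MACS2 differs in the methods of the study. The authors called broad and narrow peaks per library. Filtering is named in the peak names of broad lists alone, so poorly mapped reads may have entered the narrow ones. Whether the inputs served as background is not given in the sources used here. At the strongest summit of each member with a peak, the solved background was 11.9 (CTR 1), 7.65 (CTR 2), 8.99 (NPM1 KD 1) and 11.8 (NPM1 KD 2). It did not vary from member to member, so these folds hold no local correction for copy number or mappability. The score of a peak as deposited by the authors is its −log10 q times 10 without decimals. The deposited fold is the ratio of pileup to background, with 1 added to each. Values of −log10 p and −log10 q were deposited as MACS2 gave them. Read counts were not used here and total depth is unknown. The background and the summit pileup were solved from fold and p of narrow peaks, and whole pileups resulted (within 0.05).

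Peaks were merged and laid over gene windows with Python 3.11.15 (scipy 1.17.1, pandas 2.3.3, numpy 2.4.6), plotted with matplotlib 3.10.9, and sequence was read with samtools 1.23.1. The windows were the GENCODE bodies plus 3 kb upstream. log2(covered bp + 1000) over 18781 genes and log2 highest narrow fold, set to equal library medians, over 17231 genes were tested with limma 3.58.1 in R 4.3.3. Benjamini-Hochberg adjustment and a threshold of 0.05 were used. In a test on simulated data beforehand, changes of 2 or 4 (log2) were mostly called. Changes of 1 were mostly missed in covered length and never called in fold. The members' differences in highest narrow fold were all smaller than that. A domain was a run of broad peaks up to 1 kb apart at the 5′ end, or, for Dnmt1, Tet1 and Tet3, the run holding the summit of the strongest narrow peak, a definition added after the data were seen. The members, the pathway list, the markers and the letter patterns were chosen with earlier results of these data known. All members were named, and of the pathway list the most and least covered gene of each group and, chosen after their values were seen, some genes whose groups did not overlap, among them Hells, Tdg, Lig3, Ogt and Trim28; values of some other listed genes are not reported here. The methods tie each replicate to a passage and a transfection batch; centred on their groups, libraries of like number correlated at 0.195 in covered length and 0.207 in fold. P-values measure only the spread between these libraries.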

Additional observations from a re-analysis of the deposited data

How the results depend on the processing

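Of the members' differences in covered length and highest fold, 123 values under other settings kept their sign and 22 did not, and no member passed the threshold under any of them. Counts over all genes moved. Against 5 genes higher in covered length, limma called 0 with narrow lists, lists of equal size, genes with a peak in all 4 libraries or the replicate block, 1 with protein-coding genes only, 20 with a pseudocount of 200 bp, 74 with the gene body alone, 80 with −log10 q from 5 up, and 0 whichever library was left out. Against 0 lower it called 2 with a pseudocount of 200 bp, 3 with −log10 q from 5 up and 7 with the gene body alone. For highest fold, against 27 higher and 12 lower, it called 17 and 7 without centring, 57 and 38 with broad fold, 2 and 1 with percentiles, and 54 to 95 and 19 to 34 without 1 library. With the replicate block, read as differences within replicate numbers, 5 of 7 members were longer in covered bp in NPM1 KD in both pairs (all genes: 51.7%); the block changed no member's call. Without 1 library the members without overlap numbered 3 to 7 above and 0 to 2 below.

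Signs changed as follows (log2). In covered length, peaks whose −log10 q reached 5 gave -0.056 for Dnmt1, -0.17 for Dnmt3b and 0.10 for Uhrf1, lists of equal size -0.026 for Dnmt1 and 0.057 for Uhrf1, and narrow lists -0.058 for Tet1; without 1 library Dnmt1 ran from -0.092 to 0.092, Uhrf1 from -0.049 to 0.018 and Tet1 from -0.19 to 0.50. In highest fold, percentiles gave 0.69 points for Dnmt3a, 0.53 for Tet2 and 0.18 for Tet3, and broad fold 0.31 for Tet2; without 1 library Dnmt3a ran from -0.051 to 0.036, Dnmt3b from -0.16 to 0.051, Tet2 from -0.22 to 0.13 and Tet3 from -0.26 to 0.022.

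The 5′ domain end (NPM1 KD minus CTR, kb) became, with peaks up to 3 kb apart joined, -0.603 in Dnmt3a, 4.22 in Dnmt3b, -24.2 in Uhrf1 and 0.971 in Tet2, with narrow lists 1.74 in Dnmt3b, 1.11 in Uhrf1 and 4.07 in Tet2, and with −log10 q from 5 up 1.21 in Uhrf1 and 0.486 in Tet2. Without 1 library it ran from 14.0 to 45.6 in Dnmt3a, 1.91 to 3.15 in Dnmt3b, -1.08 to -0.222 in Uhrf1 and 9.40 to 10.7 in Tet2. The value of -24.2 in Uhrf1 came from CTR 1, in which the joined run ended at 66.75 kb, past the end of the gene at 20.2 kb. In the other libraries it ended at 18.3 to 19.2 kb. For Dnmt1, Tet1 and Tet3 the end of the run holding the strongest summit differed by -0.37, -0.093 and 2.15 kb. With peaks up to 3 kb apart joined it differed by 8.18, -1.56 and 26.9 kb. The joined run of Dnmt1 then ended at 24.1 and 36.2 kb in CTR and at 40.3 and 36.3 kb in NPM1 KD. That of Tet3 ran past the end of the gene in CTR 1 and in both NPM1 KD libraries. The cause of the remaining differences was not tested.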
